A study of Mus musculus with 148 samples.

Results

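The CD8 Dapl1 cells were the wells of this lung and mammary tumor single-cell atlas whose deposited annotation placed them among T cells and carried both CD8 and Dapl1 in its name. There were 377 such wells of 24020 annotated wells, that is 5.51% of the 6846 annotated T cells and 13.9% of the 2711 T cells annotated as CD8. They came from 27 mice and 58 of 63 samples, a sample being one tissue status of one mouse, and 23 samples held 5 or more of them. The annotation was made by the authors from the same transcriptomes, so the genes that separate these cells from other T cells are described here without a test. Conditions were compared over samples, with the UMIs (unique molecular identifiers, each marking 1 captured mRNA molecule) of the cells of a sample added together.

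Naive CD8 T cells carry the CD8 coreceptor, made of the chains encoded by Cd8a and Cd8b1, and have not yet met their antigen. They circulate between blood and lymphoid organs with the help of homing molecules such as that encoded by Ccr7, and the transcription factors Lef1 and Tcf7 maintain their resting state. Dapl1 is a gene named for its similarity to a death-associated protein, and its transcript is abundant in resting T cells. Activated and memory CD8 T cells lower these genes and express cytotoxic proteins and chemokines such as granzymes and Ccl5, while Nkg7, a membrane protein of cytotoxic granules, is shared by CD8 T cells and natural killer cells.

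The animals were female PA-GFP mice of the strain labelled C57/b6 (C57BL/6), which express a photoactivatable green fluorescent protein. EO771 mouse breast cancer cells labelled with tdTomato, all from a single tumor line, were injected into the mammary gland of 8-week-old mice, and in the metastasis arm the tumor was resected 3 weeks later. The cells sampled were hematopoietic cells sorted as CD31-CD45+, or as CD31-GFP+ where a region had been photoactivated. Normal lungs were from mice that were not injected, and mice not otherwise described were 8 to 10 weeks old. Pre-MET lungs and Primary tumors came from mice that still carried the mammary tumor, Relapse-free lungs from resected mice without visible metastases, and Distal normal tissue and MET from separate parts of the lungs of resected mice with metastases. MET Core and MET Invasive margin were photoactivated regions of metastases, and all 3 plates of the margin of mouse 17, the only margin sample with 5 or more CD8 Dapl1 cells, carried a photoactivation target labelled NON-MET. Some plates of Relapse-free mice 6 and 7 were also sorted for photoactivated cells, and held 23 of the 125 Relapse-free CD8 Dapl1 cells. The groups therefore also differ in surgery and in time since injection.

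The 377 cells held 572372 UMIs in all, with a median of 1077 UMIs per cell (range 504 to 7098) and a median of 488 genes per cell. The sums of the 23 samples with 5 or more cells ranged from 3680 to 90855 UMIs, so that a single UMI was worth 272 CPM (UMIs of a gene scaled to the same total in every sum) in the smallest of them. Cells numbered 49 in Normal lung (3 samples), 23 in Pre-MET (3), 125 in Relapse-free lung (6), 47 in Distal normal tissue (14), 30 in MET (13), 66 in MET Core (13), 24 in MET Invasive margin (7) and 13 in Primary tumor (4). Of the 66 MET Core cells, 30 came from mouse 17. The 5 samples without a CD8 Dapl1 cell were MET of mice 26 and 27, MET Core of mouse 37, MET Invasive margin of mouse 32 and Primary of mouse 9.

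The label held for the CD8 coreceptor, while the level of Dapl1 itself did not separate these cells from the wells annotated CD4 Lef1. To compare cells at one depth, each was thinned to 500 UMIs. A Dapl1 UMI was then found in 15.1% of CD8 Dapl1 cells (95% exact binomial interval 11.7% to 19.1%). It was found in 12.3% (11.1% to 13.5%) of the 3026 T cells annotated CD4 Lef1 and in 1.80% of the 1612 annotated CD8 Gzmk. The shares were 0.197% of Fn1 monocytes and 0.0948% of B cells, which should lack the gene. Unthinned, the shares were 23.6%, 16.7% and 3.60% in the 3 T cell subpopulations, whose median UMI counts per cell were 1077, 934 and 1010, against 1503 in the monocytes and 1001 in B cells. Dapl1 lies on chromosome 2 at 59484653 to 59505020 on the plus strand (GRCm38). Intervals of this kind cover counting error only.

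The other naive markers were likewise common to the CD8 Dapl1 and CD4 Lef1 cells. Over all cells pooled, Lef1 (chromosome 3, 131110471 to 131224356, plus strand) was at 332 CPM in CD8 Dapl1 cells, 494 CPM in CD4 Lef1 cells and 133 CPM in CD8 Gzmk cells, and a Lef1 UMI was found in 11.9% of thinned CD8 Dapl1 cells, in 424 of the 3026 thinned CD4 Lef1 cells and in 5.02% of thinned CD8 Gzmk cells. Tcf7 was found in 14.6%, 14.8% and 8.56% of thinned cells, in the same order. Ccr7, the receptor that guides T cells into lymph nodes, was at 344, 634 and 146 CPM, and Il7r, which carries the survival signal of interleukin 7, at 739, 818 and 525 CPM. Of the CD8 Dapl1 cells, 147 of 377 (39.0%) held a UMI of Dapl1 or Lef1, 15 held all of Dapl1, Lef1 and Cd8a, and 115 (30.5%) held none of these 3 genes.

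Cd8a (chromosome 6, 71373427 to 71379173, plus strand) was found in 37.4% (32.5% to 42.5%) of thinned CD8 Dapl1 cells, in 7.87% of CD4 Lef1 cells, in 19.7% of CD8 Gzmk cells and in 0.229% of Fn1 monocytes. Unthinned, the CD8 Dapl1 share was 54.4% and the CD4 Lef1 share 13.6%. The partner chain Cd8b1 was found in 25.2% (20.9% to 29.9%), 13.3% and 16.9% of thinned cells of the 3 T cell subpopulations. Cd4 was found in 1.33% of thinned CD8 Dapl1 cells and 4.66% of CD4 Lef1 cells.

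Nkg7 was the transcript most widely detected among the markers. It was found in 75.6% (70.9% to 79.9%) of thinned CD8 Dapl1 cells, a share near the 71.6% of CD8 Gzmk cells, and in 14.5% of CD4 Lef1 cells, 4.36% of B cells and 2.39% of Fn1 monocytes. Unthinned, it was found in 92.6%, 82.5% and 22.6% of CD8 Dapl1, CD8 Gzmk and CD4 Lef1 cells. Nkg7 lies on chromosome 7 at 43437073 to 43438249 on the plus strand. Ccl5, the chemokine of activated and memory CD8 T cells (chromosome 11, 83525778 to 83530518, minus strand), was found in 13.5% of thinned CD8 Dapl1 cells, against 88.2% of CD8 Gzmk cells, 15.5% of CD4 Lef1 cells and 12.4% of B cells. Over all cells pooled, the CD8 Dapl1 share of Ccl5 was thus near that of CD4 Lef1 and B cells.

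**Figure D1:**
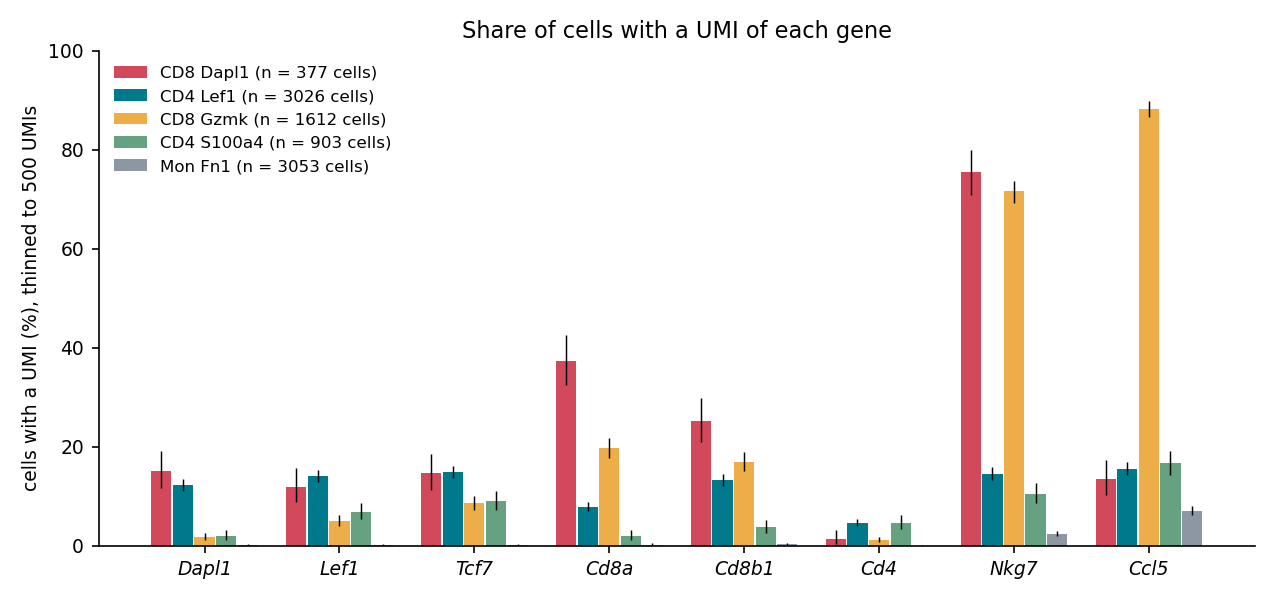
Share of cells with at least 1 UMI (%, vertical axis) of 8 genes after each cell was thinned to 500 UMIs, in CD8 Dapl1 cells, 3 other T cell subpopulations and Fn1 monocytes; lines are exact 95% binomial intervals. Dapl1 stands at 15.1% in CD8 Dapl1 and 12.3% in CD4 Lef1 cells, whereas Cd8a (37.4% and 7.87%) and Nkg7 (75.6% and 14.5%) differ, and Ccl5 is at 13.5% in CD8 Dapl1 and 88.2% in CD8 Gzmk cells.

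The boundary with the CD4 Lef1 subpopulation was not sharp at the level of single cells. A UMI of Cd8a or Cd8b1 without one of Cd4 was found in 251 of 377 CD8 Dapl1 cells (66.6%) and in 769 of 3026 CD4 Lef1 cells (25.4%), against 1.74% of Fn1 monocytes. At 500 UMIs per cell these were 193 (51.2%) and 575 cells. Of these 769 CD4 Lef1 cells, 314 also held an Nkg7 UMI. A Cd4 UMI without a CD8 gene was found in 8 CD8 Dapl1 cells (2.12%) and in 227 CD4 Lef1 cells (7.50%).

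Within samples, the CD8 Dapl1 cells were set beside the CD4 Lef1 cells of the same mouse and tissue in the 23 samples with 5 or more of them, as the log2 ratio of CPM + 10. Nkg7 had the highest mean ratio of 4060 ranked genes, 2.57 ± 0.97 (SD, n = 23), and was higher in 23 of 23 samples. Cd8a followed at 2.19 ± 1.33 (22 of 23), and Ly6c2, a surface protein of the Ly6 family found on CD8 T cells and monocytes, at 0.80 ± 2.07 (18 of 23). Cd8b1 was higher in 17 of 23 samples (mean 0.72 ± 1.41) and AW112010, an interferon-inducible transcript, in 18 of 23 (mean 0.64 ± 0.70). At the other end stood Cd4, with a mean of -2.73 ± 1.92 and a lower value in 19 of 23 samples. Among the other genes with the lowest ratios were Gpr183 (-2.47), a receptor that positions lymphocytes in lymphoid organs, and Trat1 (-2.43), an adaptor of the T cell receptor. Igfbp4, a secreted binding protein of insulin-like growth factors found in naive T cells, had a mean ratio of -2.33 and was lower in 17 of 23 samples. Many genes at this end had no UMI in most of the small CD8 Dapl1 sums, and their ratios depend on the added 10 CPM.

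Beside the CD8 Gzmk cells of the same samples, naive genes stood at one end and cytotoxic genes at the other. Dapl1 had the highest mean ratio of 4156 ranked genes (2.00 ± 2.87, higher in 18 of 23 samples), followed by Igfbp4 (1.38), Trib2 (1.31), Ccr7 (1.29, 17 of 23) and Cd8a (1.25, 19 of 23). Lef1 and Cd8b1 both had a mean of 0.80, with higher values in 16 and 18 samples. The lowest ratio was that of Ccl5, with a mean of -6.22 ± 2.67 and a mean level of 667 CPM against 18136 CPM, and no sample was higher. Gzmb, which encodes the killing protease granzyme B, stood at -3.96 ± 1.76 and was also higher in no sample. The inhibitory and activating natural killer receptors Klrc1 (-3.55), Klrc2 (-3.25) and Klrk1 (-3.18) lay at this end too. Nkg7 hardly separated the 2 CD8 subpopulations, at -0.27.

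**Figure D2:**
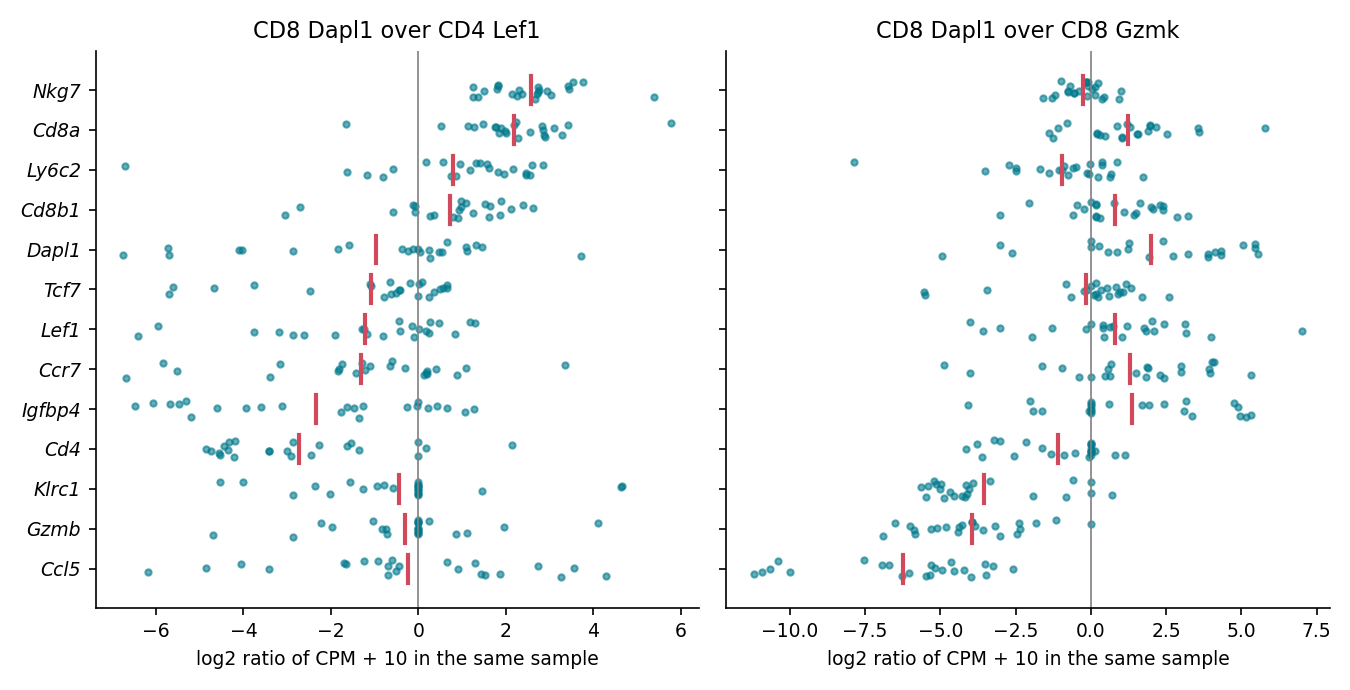
Log2 ratio (horizontal axis, CPM + 10) of CD8 Dapl1 cells to the CD4 Lef1 cells (left) and to the CD8 Gzmk cells (right) of the same sample for 13 genes (vertical axis); each point is 1 of 23 samples and red bars are means. Against CD4 Lef1 cells, Nkg7 and Cd8a lie above 0 in 23 and 22 samples, and against CD8 Gzmk cells, Ccl5 and Gzmb lie above 0 in none.

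Marker lists of the naive state and of cytotoxic function were read as summed levels. The naive list summed to 9503 CPM in pooled CD8 Dapl1 cells, 11109 in CD4 Lef1 cells and 8124 in CD8 Gzmk cells, but also to 11097 CPM in B cells, so that this sum is not specific to naive T cells. In the 3 T cell subpopulations the effector list summed to 8330, 3389 and 29501 CPM. Nkg7 alone was at 4001 CPM in CD8 Dapl1 cells and so made up much of their effector sum, while Gzmb was at 71.6, 22.9 and 533 CPM and Gzmk at 6.99, 3.56 and 117 CPM. The CD8 identity list, which also holds genes that all T cells share, summed to 9448 CPM in CD8 Dapl1, 8257 in CD4 Lef1 and 8416 in regulatory T cells and so hardly separated them, and ranged from 5609 to 13124 CPM in the 23 sums.

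Some defining markers of other cells were absent, while further markers of regulatory T, myeloid and natural killer cells were found at low levels. Foxp3, the factor that defines regulatory T cells, and the epithelial keratins Krt7, Krt8, Krt18 and Krt19 were at 0 in all 23 sums. The whole regulatory T cell list, which includes Foxp3, summed to 311 CPM in pooled CD8 Dapl1 cells. It summed to 322 CPM in CD4 Lef1 cells and 6008 CPM in regulatory T cells. Summed B cell markers ranged from 0 to 784 CPM, natural killer markers from 0 to 2296 CPM and neutrophil markers from 0 to 3622 CPM. The tumor cell list, here Wfdc17 and Cd24a alone, ranged from 0 to 373 CPM. It summed to 2727 CPM in pooled Fn1 monocytes and so is not specific to tumor cells. The monocyte and macrophage list ranged from 272 to 3941 CPM, against 45005 CPM in pooled Fn1 monocytes. The part of such transcripts in the comparisons was not tested.

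The share of CD8 Dapl1 cells among T cells was compared between tissue statuses. It was 6.34%, 5.00% and 6.84% in the 3 Normal lungs, and 6.12%, 8.18% and 9.76% in the 3 Pre-MET lungs. In Relapse-free lungs it ranged from 3.39% to 8.78% with a median of 5.04% (n = 6), and in Distal normal tissue from 2.74% to 14.3% with a median of 6.07% (n = 14). The ranges of these 4 kinds of lung overlapped. In MET it ranged from 0% to 9.86% (median 4.76%, n = 13), in MET Core from 0% to 11.1% (median 5.00%, n = 13) and in MET Invasive margin from 0% to 10.0% (median 4.35%, n = 7). The Primary tumors had 4.41%, 0%, 4.59% and 3.38%, the 0 being 0 of 79 T cells of mouse 9, which allows a share of up to 3.80% when 3 cells are taken as the limit of a count of 0, and 4.56% by the exact binomial interval. Means ± SD were 6.06 ± 0.95% in Normal, 8.02 ± 1.82% in Pre-MET, 5.41 ± 2.06% in Relapse-free, 7.71 ± 3.72% in Distal normal tissue, 4.88 ± 3.29% in MET, 5.42 ± 3.47% in MET Core, 4.82 ± 3.47% in MET Invasive margin and 3.09 ± 2.13% in Primary.

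No difference in this share passed its test. In 13 mice with both tissues, MET was lower than Distal normal tissue by a mean of 3.01 percentage points (SD 5.11), in 8 of 13 mice, with a 2-sided permutation p of 0.0583 and an adjusted p of 0.6 over the 16 frequency tests. Without pairing by mouse the difference was -2.83 points (permutation p = 0.0471, unadjusted), and as a share of all immune cells it was -0.964 points (paired permutation p = 0.0190, unadjusted). Within the 3 sequencing batches that held both tissues, the difference was -3.45, -5.18 and +0.312 points. Each sample counted equally in these means, with a median of 34 T cells in Distal normal tissue and 42 in MET. Over all samples pooled, CD8 Dapl1 cells were 47 of 808 T cells in Distal normal tissue and 30 of 668 in MET. Distal normal tissue was 2.30 points above Relapse-free lung (permutation p = 0.167), but this difference was -3.30, 4.13 and 0.337 points within the 3 batches that held both, so its direction did not hold in each batch. Pre-MET was 1.96 points above Normal lung (exact permutation p = 0.3, where 0.1 is the smallest p for 3 against 3 mice), Relapse-free lung 0.647 points below it (exact permutation p = 0.643), and Distal normal tissue 1.66 points above it (permutation p = 0.509). As a share of all immune cells, Pre-MET (mean 1.63%) and Distal normal tissue (1.65%) instead stood below Normal lung (2.41%). Among cells with 1000 or more UMIs, Distal normal tissue was 0.0844 points below Relapse-free and 2.48 points below Normal lung. All Normal plates were 1 sequencing batch that held no other status, so that batch and status cannot be told apart in comparisons with Normal lung.

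No difference that involved tumor regions passed its test either. MET Core and MET Invasive margin of the same 6 mice differed by 0.777 points (SD 5.61, higher in 3 of 6 mice, exact permutation p = 0.8125), with differences of 1.39, -1.89, 3.63 and -0.330 points within batches. Primary tumor was 2.33 points below MET Core (exact permutation p = 0.230), and in the 1 batch that held both, with 1 sample against 2, it was 3.04 points above. In the 3 mice with both tissues, Primary tumor was lower than Pre-MET lung by a mean of 5.02 points (SD 3.24, lower in 3 of 3 mice, exact permutation p = 0.25, the smallest that 3 pairs allow). The Primary and Pre-MET shares did not overlap, and these tissues shared no batch.

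Other denominators gave the share among the most similar cells. Among naive cells, taken as CD8 Dapl1 and CD4 Lef1 cells together, the CD8 Dapl1 share was 10.1 ± 1.85% in Normal, 11.1 ± 1.98% in Pre-MET, 8.72 ± 3.24% in Relapse-free, 13.2 ± 5.91% in Distal normal tissue, 10.4 ± 6.04% in MET, 18.7 ± 10.4% in MET Core, 18.5 ± 12.2% in MET Invasive margin and 9.75 ± 7.09% in Primary. The smallest p among its 8 comparisons was 0.0851, for Distal normal tissue 4.49 points above Relapse-free lung (permutation test). The share among T cells annotated as CD8 leaves out the CD4 Lef1 cells that held a UMI of a CD8 gene. It was 26.1%, 36.0% and 44.4% in Pre-MET lungs and 16.2%, 17.0% and 20.8% in Normal lungs, without overlap. The difference of 17.5 points had the smallest p that this design allows (exact permutation p = 0.1). In the same measure Relapse-free lung and Distal normal tissue both stood at 19.2%, MET at 12.5%, Primary at 10.8%, MET Core at 9.07% and MET Invasive margin at 8.55%. The Pre-MET lungs thus had the highest mean share among CD8 T cells of the 8 statuses, in 3 mice. They did not among all immune cells, where the mean was 1.63% in Pre-MET, 2.41% in Normal and 2.11% in Relapse-free lung. It was 1.84% in MET Core, 1.65% in Distal normal tissue, 1.08% in MET Invasive margin, 0.803% in Primary and 0.767% in MET.

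**Figure D3:**
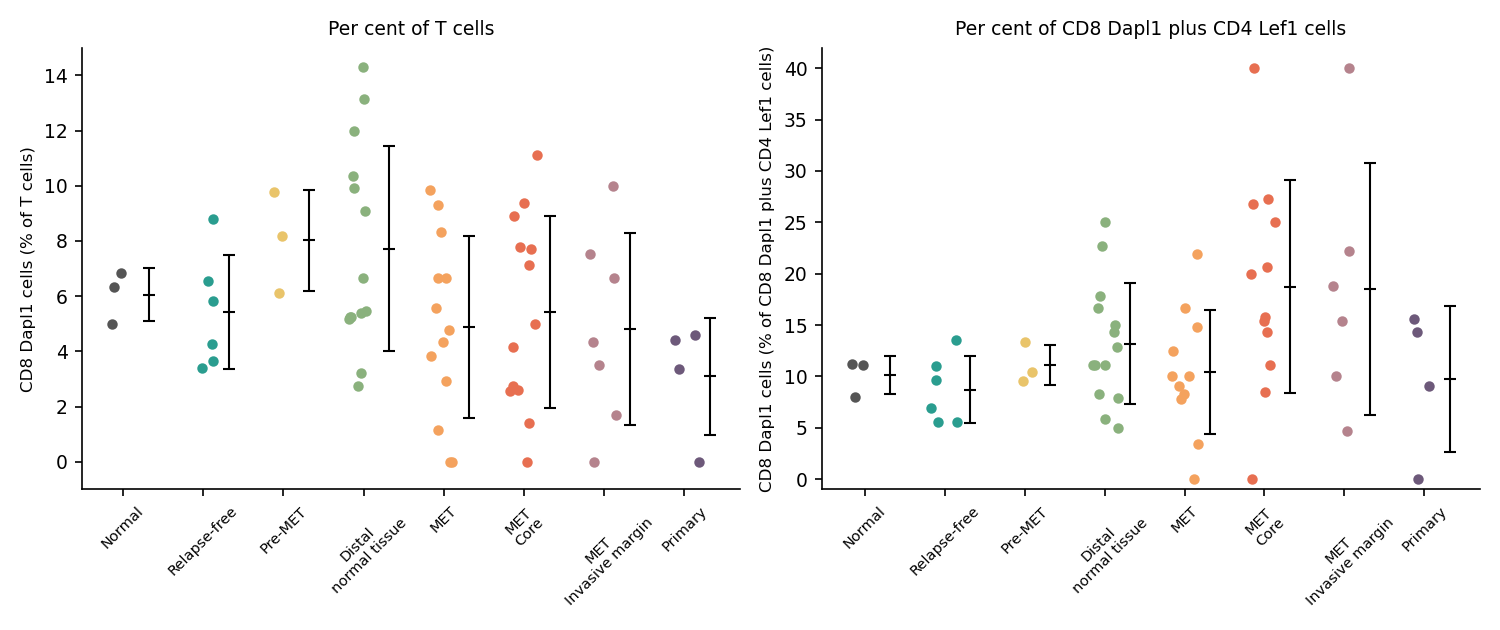
CD8 Dapl1 cells as a percentage of T cells and of naive cells (vertical axes) in each sample by tissue status; points are samples and dashes with lines are mean ± SD. Means of the share of T cells run from 3.09% in Primary to 8.02% in Pre-MET, and the Primary samples (0% to 4.59%) lie below all Normal and Pre-MET samples, while each other pair of statuses overlaps.

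The marker genes were next followed across tissue statuses in the sums of 5 or more cells. These existed for 3 Normal, 3 Pre-MET, 5 Relapse-free, 3 Distal normal tissue, 2 MET, 4 MET Core, 1 MET Invasive margin and 2 Primary samples. Cd8a was detected in all 23 sums, from 161 to 3003 CPM with a median of 1339 CPM. Nkg7 ranged from 1505 to 7037 CPM, with 3281, 4359 and 3601 CPM in Normal, 4606, 4396 and 4879 CPM in Pre-MET and 3617 and 1614 CPM in Primary. Both Cd8a and Nkg7 were thus present in every sum, and neither passed the test in any comparison of statuses.

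Dapl1 was at 797, 436 and 460 CPM in Normal lungs and at 905, 621, 517, 681 and 909 CPM in Relapse-free lungs. It was at 432, 0 and 191 CPM in Pre-MET, at 0, 815 and 881 CPM in Distal normal tissue, at 0 and 131 CPM in MET, at 143, 431, 0 and 0 CPM in MET Core, at 1721 CPM in the MET Invasive margin and at 161 and 1372 CPM in Primary. Every Normal and Relapse-free sum held Dapl1, whereas 5 of the other 15 sums had none. Depth differed in the same way, since the Normal and Relapse-free sums held 15473 to 71526 UMIs and the 5 sums without Dapl1 held 4186 to 8526 UMIs. Lef1 was at 47, 1356 and 306 CPM in Normal, 1296, 0 and 383 CPM in Pre-MET, and 373, 310, 711, 511 and 364 CPM in Relapse-free lungs. In MET Core it was at 77.0, 0, 0 and 586 CPM. Neither Dapl1 nor Lef1 passed the test in any comparison of statuses.

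**Figure D4:**
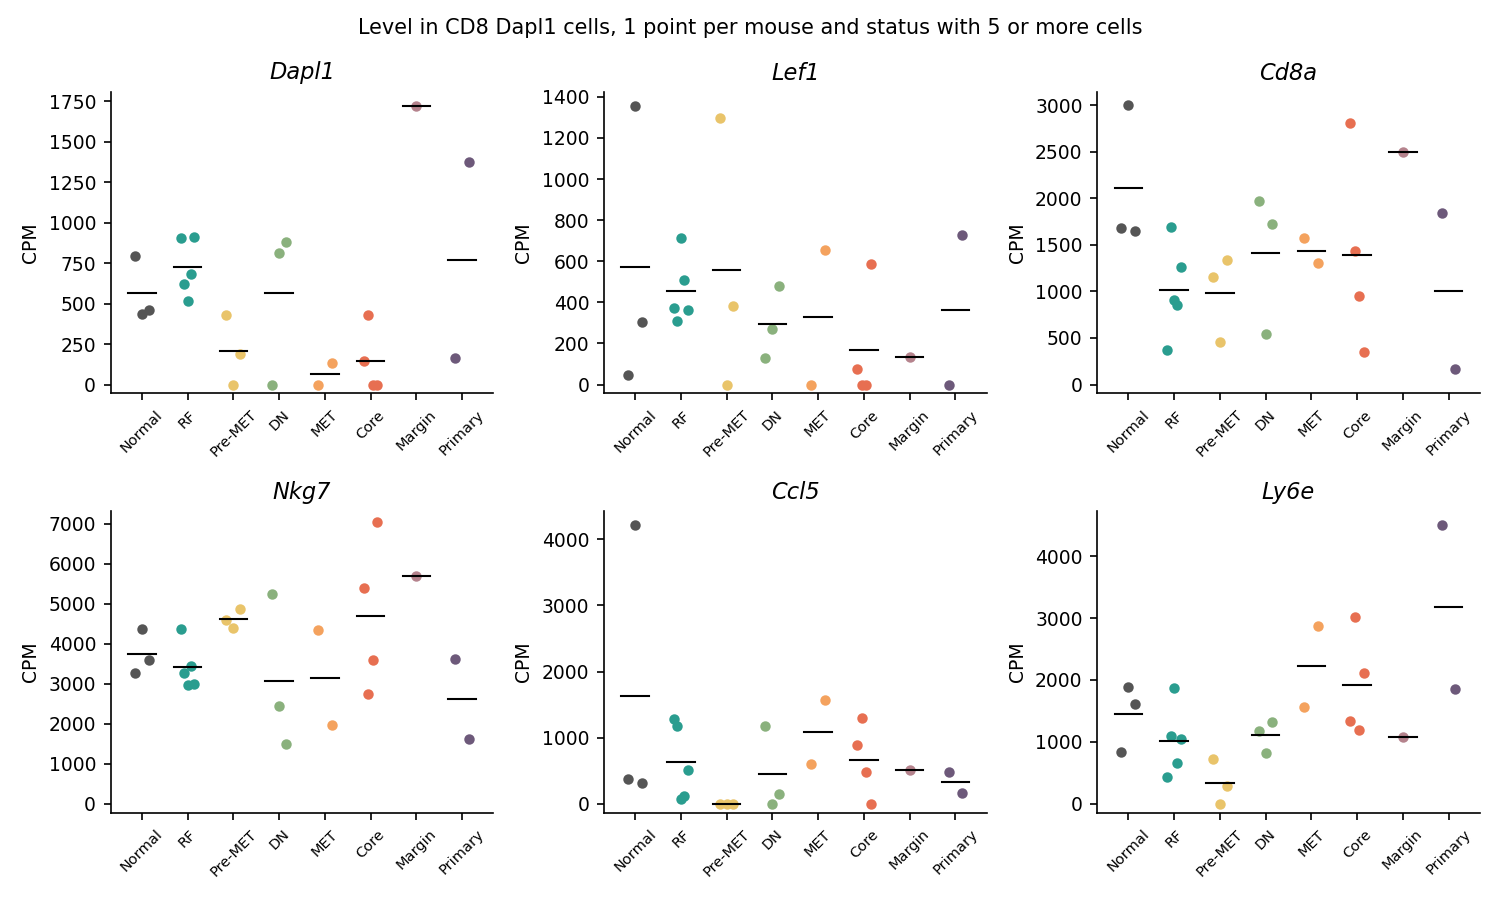
Level (CPM, vertical axes) of Dapl1, Lef1, Cd8a, Nkg7, Ccl5 and Ly6e in each CD8 Dapl1 sum of 5 or more cells by tissue status; points are samples and lines are means (RF, Relapse-free; DN, Distal normal tissue; Core and Margin, MET Core and MET Invasive margin). Ly6e is at 4501 and 1857 CPM in Primary and 720, 0 and 287 CPM in Pre-MET, and Ccl5 is at 0 in the 3 Pre-MET sums.

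Gene expression in Pre-MET lungs was compared with that of Normal lungs. The Normal sums came from 1 sequencing batch that held no other status, so that batch and status cannot be told apart. Ccl5 had no UMI in the 3 Pre-MET sums, against 375, 4213 and 306 CPM in Normal lungs, where the second value stood far above the others. It was at least 12.1-fold lower in Pre-MET (0 against 103 UMIs, taking 3 UMIs over the group as the floor), and at least 2.70-fold lower without Normal mouse 2, which held 87 of the 103 UMIs. It did not pass with edgeR (adjusted p = 0.185, the smallest in this comparison). Of 540 genes tested, edgeR called none (0.0%), 42 had an unadjusted p below 0.05, and DESeq2 called 1, which was Ccl5. The 12 tested genes of the naive list had a median log2 difference of -0.996, the 10 CD8 identity genes -0.91, and the 7 effector genes -1.71, against -0.23 over all genes tested. The makeup of the sums moved with these groups without overlap, as ribosomal protein genes took 13.7% to 15.0% of UMIs in Pre-MET and 9.14% to 11.5% in Normal lungs, pseudogenes 31.9% to 33.3% and 20.8% to 26.2%, and Malat1 was at 2274 to 3599 CPM and 6375 to 8733 CPM. The part of this in the medians was not tested.

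Relapse-free lungs did not differ from Normal lungs by any gene that edgeR called (0 of 540, 0.0%; 20 at an unadjusted p below 0.05; DESeq2 called 0). Between Distal normal tissue and Relapse-free lungs edgeR also called none (0.0%), with 46 genes at an unadjusted p below 0.05 and 3 called by DESeq2. Between MET and Distal normal tissue it called none (0.0%), with 31 genes at an unadjusted p below 0.05 and 0 called by DESeq2. MET Core could not be compared with MET Invasive margin, which had 1 sum.

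A single gene passed in each of 2 further comparisons. Gm22761, annotated as a microRNA gene (chromosome 2, 103843418 to 103843513, minus strand), was at 0, 0 and 73 CPM in Distal normal tissue and at 2250, 1259 and 1953 CPM in Normal lungs (log2 difference -5.15 ± 1.17 SE, edgeR adjusted p = 0.0488). It was the only call among 540 genes (0.185%), and 65 had an unadjusted p below 0.05. DESeq2, and edgeR fitted to the compared statuses only, called more genes. Scaling by library size and thinning gave no call, as listed at the end. Gm42418, a non-coding RNA gene (chromosome 17, 39846958 to 39848788, plus strand), was at 9083 and 29706 CPM in Primary and at 2939, 2301, 1433 and 2463 CPM in MET Core (log2 difference 3.14 ± 0.63 SE, edgeR adjusted p = 0.00853), again the only call (0.185%). The Primary sums came from 1 sequencing batch that held none of the MET Core sums, so that batch and tissue cannot be told apart here. The same holds for Gm22761, since the Normal sums came from 1 batch without Distal normal tissue. Gm22761 was also lower without overlap in the CD4 Lef1 cells (means of 171 against 1286 CPM) and the CD8 Gzmk cells (152 against 1069 CPM) of the same samples. Gm42418 was also higher in Primary than in MET Core without overlap in the CD4 Lef1 and in the CD8 Gzmk cells of the same samples. Neither call held each time a single sum was left out. Gm22761 was no longer called with any of the 6 sums left out in turn (edgeR adjusted p from 0.0511 to 0.315), with log2 differences of -8.25 to -5.01, and Gm42418 was not called without Primary of mouse 38 or MET Core of mouse 30 or 34, with log2 differences of 1.83 to 3.84 over the 6 sums left out in turn.

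The comparison of Primary tumor with Pre-MET lung gave the most calls, 35 of 540 genes (6.48%), of which 17 were higher and 18 lower in Primary. It rests on 2 Primary and 3 Pre-MET sums that shared only mouse 10 and no sequencing batch, so that batch and tissue cannot be told apart. Each Primary sum held 5 cells and the Pre-MET sums 6 to 9 cells, so that single cells can weigh heavily in the levels below. The higher genes included interferon-induced genes and genes of class I antigen presentation, and 19 of the 35 were ribosomal, mitochondrial or pseudogene rows, of 191 such genes tested. In 34 of the 35, the 2 groups did not overlap. The share of such genes among all 540 tested was not computed, so this count adds no support.

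Interferon-induced genes were among those that rose. Ly6e, a surface protein of the Ly6 family (chromosome 15, 74955051 to 74959905, plus strand), was at 4501 and 1857 CPM in Primary and at 720, 0 and 287 CPM in Pre-MET (log2 difference 3.72 ± 0.79 SE, edgeR adjusted p = 0.00857). Ifi203, of the family that senses DNA (chromosome 1, 173920407 to 173942672, minus strand), was at 884 and 1534 CPM in Primary and had no UMI in Pre-MET, and was at least 9.66-fold higher (30 against 0 UMIs, edgeR adjusted p = 0.0282). Of the 38 genes of the interferon list, 6 passed the filter on low counts and 3 of them were called, all higher, against 6.48% called over all genes tested. The median log2 difference of the 6 was 3.89, against 0.18 over all genes tested. Those 540 genes include 191 ribosomal, mitochondrial or pseudogene rows, and the medians of the other lists given below lay above 0.18 as well. With each of the 5 sums left out in turn, Ly6e was still called in 4 instances (not without Primary of mouse 10, adjusted p = 0.0845), and Ifi203 in none, nor was it called without ribosomal, mitochondrial and pseudogene rows (edgeR adjusted p = 0.0827). The summed interferon list ranged from 10171 to 16397 CPM in Primary, 1439 to 7124 CPM in Pre-MET, 3468 to 6358 CPM in Normal lungs and 6928 to 15937 CPM in MET Core. Both Primary sums thus lay above all Normal and Pre-MET sums, and the MET Core sums above all Normal sums but not above all Pre-MET sums. Levels of this list in the other statuses are not reported here, so these ranges do not set tumor regions apart from all lungs.

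Of the 16 genes of class I antigen presentation, 7 were tested and 2 were higher, H2-D1 and H2-K1, which encode heavy chains of class I molecules. H2-D1 was at 4984 and 2018 CPM in Primary and 1296, 910 and 957 CPM in Pre-MET (log2 difference 2.23). H2-K1 was at 1688 and 7265 CPM against 1152, 1819 and 383 CPM (2.59), and its groups overlapped. The median log2 difference of the 7 was 1.55, against 0.18 over all genes tested, of which 6.48% were called.

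Of the 18 genes of early activation, 7 were tested and Junb, a subunit of the AP-1 transcription factor, was higher. It was at 1206 and 646 CPM in Primary and 144, 152 and 0 CPM in Pre-MET (3.81, edgeR adjusted p = 0.0351), but was not called with any of the 5 sums left out (adjusted p from 0.0818 to 0.176). The median log2 difference of the 7 was 1.35, against the same 0.18 and 6.48% called over all genes. None of the 12 naive genes (median 1.18), 10 CD8 identity genes (1.09), 7 effector genes (3.14) or 6 trafficking genes (1.56) tested was called. Genes of checkpoint receptors and exhaustion were too low to test. Their summed level was 1130 to 1366 CPM in Primary, 288 to 1642 CPM in MET Core and 304 CPM in the MET Invasive margin, against 0 CPM in the 3 Pre-MET sums, 0 to 96.9 CPM in Normal, 0 to 131 CPM in Distal normal tissue, 0 to 261 CPM in MET and 0 to 308 CPM in Relapse-free lungs.

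Outside the lists, Cfl1, which severs actin filaments, was at 1849 and 969 CPM in Primary and 0, 0 and 383 CPM in Pre-MET (log2 difference 3.62 ± 0.99 SE), and Limd2 was at 1768 and 1049 CPM against 288, 0 and 0 CPM (4.43 ± 1.17 SE). Both had an edgeR adjusted p of 0.0282. Cnot6l, a catalytic subunit of the complex that shortens the tails of mRNAs, was at 402 and 888 CPM in Primary and at 0 in Pre-MET, and was at least 5.15-fold higher (16 against 0 UMIs, edgeR adjusted p = 0.0304). Cnot6l was not called with any of the 5 sums left out, and Cfl1 and Limd2 were each called with 1 of them left out, with log2 differences of 3.05 to 8.04 and 3.63 to 8.02. The actin-binding Coro1a (2.50) and Tmsb10 (2.20), and the nuclear non-coding RNA Malat1 (3.21), chosen after their values were seen, were higher as well.

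The lower genes were led by ribosomal protein genes and their pseudogenes. Rps10 was at 2303, 606 and 1722 CPM in Pre-MET and had no UMI in Primary, where it was at least 13.1-fold lower, and the pseudogene Gm12328 was at least 11.0-fold lower. Rnasek, a small membrane protein linked to the proton pump of endosomes, was at 432, 910 and 765 CPM in Pre-MET and 0 in Primary, at least 5.86-fold lower (edgeR adjusted p = 0.0475), but was not called with any of the 5 sums left out. The share of UMIs in ribosomal protein genes moved with the groups over the whole transcriptome, at 6.94% and 8.86% in Primary and 13.7% to 15.0% in Pre-MET, and pseudogenes took 14.5% to 18.6% and 31.9% to 33.3%. The median UMI count per cell was 2210 and 2885 in the Primary sums and 710 to 1191 in the Pre-MET sums. Markers of other cells moved with the groups too. The 7 neutrophil markers summed to 0 CPM in both Primary sums and to 1061 to 1583 CPM in Pre-MET. The 8 dendritic cell markers, with Xcr1, Cd209a and Siglech at 0, summed to 563 to 1372 CPM in Primary and 152 to 288 CPM in Pre-MET. This list summed to 24841 CPM in pooled B cells and so is not specific to dendritic cells. The part of these differences in the calls was not tested. With each cell thinned to 500 UMIs, 13 genes were called, and without ribosomal, mitochondrial and pseudogene rows 8 were called. With limma voom, 21 genes were called with mouse as a random block and 5 without the block.

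The named differences were not particular to CD8 Dapl1 cells. The 16 genes had been selected by size among called genes without overlap in CD8 Dapl1 cells. In the CD4 Lef1 and the CD8 Gzmk cells of the same samples, 15 of the 16 differed in the same direction in each subpopulation. Of these, 14 and 13 were without overlap, a share not computed over all genes. Rnasek had the opposite direction. In CD4 Lef1 cells Ly6e was at 1586 to 2414 CPM in Primary and 847 to 1351 CPM in Pre-MET, and Ifi203 at 390 to 510 against 169 to 257 CPM. The ribosomal share in these cells was 5.97% to 7.78% in Primary and 11.9% to 13.2% in Pre-MET. Without Primary of mouse 10 or 38, edgeR called 6 or 1 genes, and without Pre-MET of mouse 10, 8 or 9 it called 11, 6 or 12. The 1 gene called without Primary of mouse 38 was Ly6e.

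**Figure D5:**
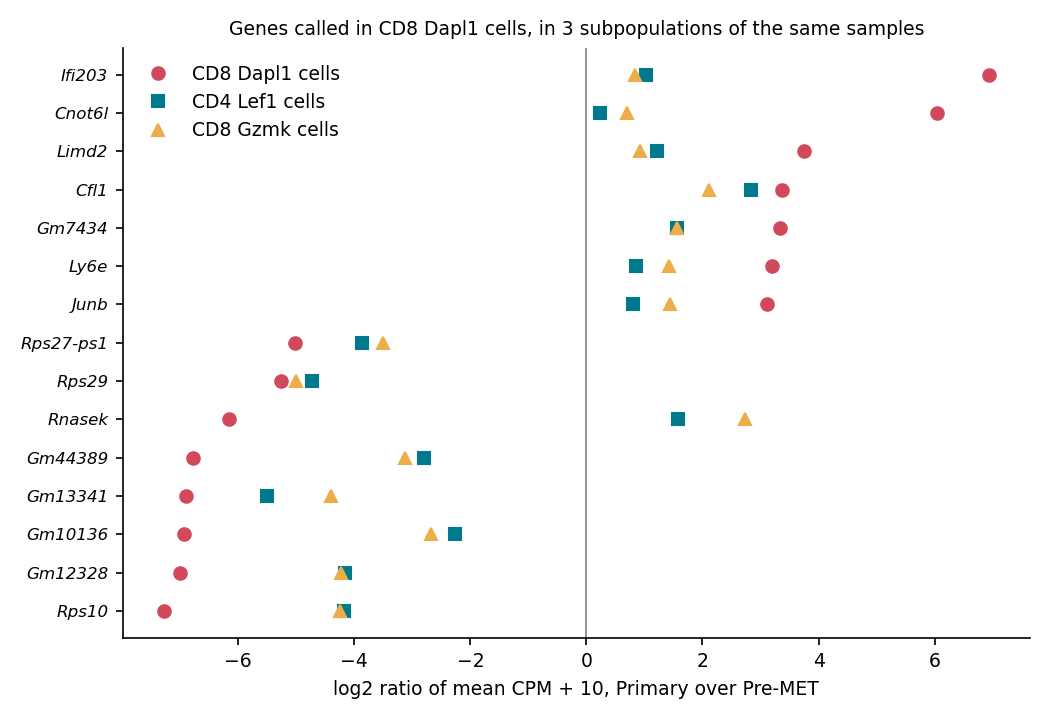
Log2 ratio of mean CPM + 10, Primary over Pre-MET (horizontal axis), of 15 of the 16 genes selected in this comparison (vertical axis) in CD8 Dapl1, CD4 Lef1 and CD8 Gzmk cells. The 7 genes shown that were higher in CD8 Dapl1 cells are above 0 in the other subpopulations too, and of the 8 lower genes Rnasek is not below 0 there.

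With the samples of each mouse with metastases pooled over their regions, metastasis-bearing lungs were compared with Normal and with Relapse-free lungs over 323 genes. Against Normal lungs (12 against 3 sums), edgeR called 13 genes (4.02%), 4 higher and 9 lower. All Normal sums came from 1 sequencing batch that held no other status, so that batch and status cannot be told apart in these calls. Of the 13, 10 were ribosomal or pseudogene rows, while 151 of the 323 genes tested were ribosomal, mitochondrial or pseudogene rows. In 5 of the 13 the groups did not overlap, a share not computed over all genes tested. Rps29 was lower (log2 difference -2.70 ± 0.61 SE), as were the pseudogene Gm12328 (-2.45) and Rpl23 (-1.95), and the non-coding RNA gene Gm12319 (4.64 ± 1.31 SE) and AC158620.2 (2.78 ± 0.68 SE) were higher. With 1 sum left out in turn, Gm12319 was still called in 7 of the 12 fits that tested it (4.05 to 6.56). AC158620.2 was still called in 12 of 15 (2.45 to 3.03). The 8 named genes had edgeR adjusted p values from 0.0191 to 0.0286. All 8 differed in the same direction in the CD4 Lef1 and the CD8 Gzmk cells. In these, 5 and 3 of them were without overlap, again a share not computed over all genes. Without Normal mouse 1 or 3 no gene was called, without Normal mouse 2 there were 2 calls, and without metastatic mouse 30 or 34 there were 22 or 7. Against Relapse-free lungs, edgeR called none (0.0%, smallest adjusted p = 0.0517), 44 genes had an unadjusted p below 0.05 and DESeq2 called 9. The 2 comparisons share the metastatic samples. No gene of the naive, CD8 identity, effector, interferon or other lists was called by edgeR, as reported here, in any comparison other than Primary against Pre-MET, while DESeq2 called Ccl5 between Pre-MET and Normal lungs.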

How the data were processed

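Single immune cells were sorted into plates and sequenced by a 3' UMI method. The authors aligned the reads to the mouse genome (mm10) with HISAT, dropped reads that mapped to several places, removed cells under 500 UMIs and annotated cells by metacell clustering; bcl2fastq 2.15.0.4 is named in the submitters' processing notes, and the gene annotation version is not given in the sources used here. The deposited plate tables hold UMI counts per gene and well, and every value column was mapped to a sample (0 unmapped). Wells were joined to the deposited cell table by well identifier. Doublets were limited by the single-cell sort gate alone and no doublet caller was run. Because reads with several places were dropped, counts of ribosomal genes, their pseudogenes and other near-identical copies are uncertain. Gene positions were taken from GENCODE vM21 (GRCm38, the same assembly as mm10), which held 66 of the 67 genes named by rule.

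Counts of CD8 Dapl1 cells were summed per mouse and tissue status where there were 5 or more cells. Sums of all statuses except MET Invasive margin entered 1 fit (22 sums, 540 genes after the filter on low counts), and metastatic regions pooled per mouse a second one (23 sums, 323 genes), with edgeR 4.0.16 (quasi-likelihood test, TMM, R 4.3.3) and Benjamini-Hochberg adjustment. A gene was called at an adjusted p of 0.05. Mouse was not a term in these fits, and limma 3.58.1 (voom) with mouse as a random block was an alternative, in which 3 mice had more than 1 sum (estimated correlation 0.278). Frequencies were compared by exact permutation tests, or by random resampling for larger groups, 2-sided, and paired by mouse where both tissues came from the same mice, with SciPy 1.17.1. As a check of the pairing, deviations of T cell composition correlated within mice at -0.0713 (MET and Distal normal tissue, 13 mice), 0.402 (MET Core and margin, 6 mice) and 0.151 (Primary and Pre-MET, 3 mice). p values of the frequency tests measure the spread between mice. Those of edgeR measure the spread between sums, with the dispersion shared between statuses. In the fit of statuses, sums of the 3 mice with more than 1 were treated as independent. The edgeR comparisons alone were tried on simulated counts, in which known genes were changed by a log2 difference of 2. Between statuses, the share of changed genes recovered ran from 13% (MET minus Distal normal tissue) to 53% (Relapse-free minus Normal). It was 95.0% for pooled metastatic minus Relapse-free and 90.1% minus Normal. Between statuses, even a log2 difference of 2 could thus be missed where no gene was called. Smaller differences were not simulated. These simulations changed 200 of the 540 genes at once, and recovery with fewer changed genes was not examined. Alternatives were DESeq2 1.42.0, other filters, scalings, cell minimums, denominators and left-out samples.

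The genes named were Dapl1, Lef1 and Cd8a, the 8 called genes with the largest difference in each direction whose groups did not overlap (or all called genes if fewer), the 15 highest and 10 lowest within-sample ratios against CD4 Lef1 cells, the 10 and 10 against CD8 Gzmk cells, and members of gene lists with a mean of 100 CPM or more; ratios were ranked over genes with a mean of 50 CPM or more. Values of some genes are not reported here. The cells and gene lists were chosen with earlier results of these data known.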

Additional observations from a re-analysis of the deposited data

Results flagged for a closer look

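In the CD8 Dapl1 sums of MET Core, Lef1 was at 586 CPM in mouse 36, while the other 3 sums were at 0 to 77.0 CPM. This sample stood apart by Dixon's test, with a gap of 0.869 of the range of the 4 sums. Of 15 groups of 4 or more samples examined, this was the 1 with such a sample, and chance alone gives about 1 in 20. The part of depth or of the cells' makeup in it was not tested.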

How the results depend on the processing

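Frequency differences are given in percentage points. With all immune cells as the denominator, the differences were -0.776 for Pre-MET minus Normal, -0.763 for Distal normal tissue minus Normal and -0.466 for Distal normal tissue minus Relapse-free, each opposite to the percentage of T cells, and -0.964 (p = 0.0190, permutation) for MET minus Distal normal tissue. As a percentage of CD8 T cells, the sign turned for Relapse-free minus Normal (1.23), MET Core minus MET Invasive margin (-0.276) and Primary minus MET Core (1.74). Among cells with 1000 or more UMIs it turned for Distal normal tissue minus Normal (-2.48; of naive cells -2.34) and minus Relapse-free (-0.0844; of naive cells -0.682). With 20 or more cells in the denominator it turned for MET Core minus MET Invasive margin (-1.29) and, of naive cells, for MET minus Distal normal tissue (7.76). The cause of these changes was not tested.

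Without the pairing by mouse, the share of T cells differed by -2.83 (p = 0.0471, permutation) for MET minus Distal normal tissue, 0.603 (p = 0.713) for MET Core minus MET Invasive margin and -4.93 (exact permutation p = 0.0571) for Primary minus Pre-MET, and the share of naive cells by -2.79, 0.213 and -1.36. The pairing changed no other call. For gene expression, limma voom fits with and without mouse as a replicate block (a random effect), chosen after seeing the data, called 21 and 5 genes for Primary minus Pre-MET, 4 and 5 for Primary minus MET Core, and 0 in both for the other comparisons of statuses, including Distal normal tissue minus Normal. A fit of within-mouse differences alone was not run, since with 5 or more cells per sum Primary and Pre-MET shared only mouse 10, and MET and Distal normal tissue only mouse 36.

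With 1 sample (or pair) left out in turn from each group of 6 or fewer, the share of T cells differed by 1.09 to 2.91 for Pre-MET minus Normal, -1.32 to -0.243 for Relapse-free minus Normal, 1.13 to 2.04 for Distal normal tissue minus Normal, 1.90 to 2.98 for Distal normal tissue minus Relapse-free, -1.29 (without mouse 32) to 1.93 for MET Core minus MET Invasive margin, -2.83 to -1.30 for Primary minus MET Core and -6.68 to -3.44 for Primary minus Pre-MET. The larger groups, and thus MET minus Distal normal tissue, were not examined in this way. For the share of naive cells these ranges were -0.119 (without Pre-MET mouse 10; -0.0731 without Normal mouse 2) to 1.79, -2.46 to -0.764, 2.02 to 3.66, 3.85 to 5.45 (permutation p = 0.0437 without Relapse-free mouse 18), -0.375 (without mouse 17) to 3.32, -10.9 to -5.74, and -4.09 to 3.53 (without mouse 9).

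Calls ranged with 1 sum left out from 0 to 1 for Pre-MET minus Normal (1 without Pre-MET mouse 9 or Normal mouse 3), from 0 to 4 for Distal normal tissue minus Relapse-free (4 without Relapse-free mouse 35), from 0 to 2 for Primary minus MET Core, from 1 to 12 for Primary minus Pre-MET (6, 1, 11, 6 and 12 without Primary mouse 10 or 38 or Pre-MET mouse 10, 8 or 9), from 0 to 22 for pooled metastatic minus Normal and from 0 to 18 for pooled metastatic minus Relapse-free (2, 15, 7 and 18 without metastatic mouse 17 or 30 or Relapse-free mouse 18 or 35), and were 0 for Relapse-free minus Normal, Distal normal tissue minus Normal and MET minus Distal normal tissue. A lone remaining Primary sum is assumed to vary like the other groups. DESeq2 called 1 gene for Pre-MET minus Normal, 13 for Distal normal tissue minus Normal, 3 for Distal normal tissue minus Relapse-free, 9 for pooled metastatic minus Relapse-free and 21 minus Normal. Without the filter on low counts, edgeR called 1 for Pre-MET minus Normal, 0 for Distal normal tissue minus Normal, 2 for Primary minus Pre-MET, 13 for pooled metastatic minus Relapse-free and 5 minus Normal. With only the compared statuses fitted, it called 1 for Pre-MET minus Normal and 27 for Distal normal tissue minus Normal. For the latter it called 0 scaled by library size and 2 with 3 or more cells per sum. For pooled metastatic minus Normal it called 0 with 10 or more cells per sum and 0 in cells with 1000 or more UMIs. Chosen after seeing the data were thinning each cell to 500 UMIs, which gave 0 for Distal normal tissue minus Normal, 13 for Primary minus Pre-MET, 3 for pooled metastatic minus Relapse-free and 0 minus Normal with fewer genes tested, and leaving out ribosomal, mitochondrial and pseudogene rows, which gave 1 for Pre-MET minus Normal, 1 for Relapse-free minus Normal, 3 for Distal normal tissue minus Normal, 1 for Distal normal tissue minus Relapse-free, 2 for Primary minus MET Core, 8 for Primary minus Pre-MET and 2 for pooled metastatic minus Normal. For most comparisons of statuses, 10 or more cells per sum and cells with 1000 or more UMIs gave no value. Of the named genes, 0 changed direction in any setting run, and 106 of their 209 values with 1 sum left out lost the call. In the other settings, 92 of the 229 values of named genes lost the call. The named genes were picked for large differences, mostly between groups without overlap, so their direction could hardly turn. Depth limits genes near 1 UMI per sum, which reached 272 CPM.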
